A study of Rattus norvegicus with 36 samples.

Results

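Cmah and 8 further genes of the sialic acid pathway were followed by RNA-seq in rat colon and colon tumors. The 9 genes (Cmah, Gne, Nans, Cmas, Slc35a1, St6gal1, St3gal4, St3gal6 and Neu1) were taken by symbol from 17378 named entries of the expression table, and all 9 passed the filter on low values, as did 11544 genes in all. Male F344 wild-type (WT) rats and Pirc rats were compared. Pirc rats are F344/NTac animals with the am1137 allele of Apc, and they develop polyps in the colon. Both genotypes received AIN93 control diet or AIN93 with 10% w/w freeze-dried baby spinach (SPI) after weaning, and tissue was taken at 30 weeks of age. Normal colon of WT rats on control diet formed group WCN, and that of WT rats on SPI formed WSN. In Pirc rats on control diet, normal-looking colon formed PCN and colon tumors formed PCT. The same tissues of Pirc rats on SPI formed PSN and PST. Each group held 3 libraries, 18 in all. The labels number the libraries within a group without naming the rat of each, so p-values measure the spread between libraries. The study matched tumor and normal-looking colon within Pirc rats, and the main fit treated these libraries as independent.

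Sialic acids are acidic sugars at the outer ends of the glycans on secreted mucins and cell surfaces. Gne makes the committed precursor from UDP-GlcNAc, Nans condenses it to the phosphate of the sialic acid Neu5Ac, and Cmas activates free Neu5Ac to CMP-Neu5Ac. Cmah hydroxylates CMP-Neu5Ac to CMP-Neu5Gc, the second common sialic acid of most mammals, which humans cannot make because their CMAH gene is inactive. Slc35a1 carries the activated sugars into the Golgi, where sialyltransferases such as St3gal4, St3gal6 and St6gal1 attach them to glycans. Neu1 is the lysosomal sialidase that removes them.

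Cmah and St3gal4 are named in the study's own heat map of PCN, PCT and PSN, and the remaining members were added with results of these libraries known. Members were thus chosen by their RPKM in PCN, PCT, PSN and WCN, and for them PSN vs. PCN, PCT vs. PCN and PCN vs. WCN are given as values without a test. Tests are given for PSN vs. WSN, PST vs. PSN, PST vs. WSN, WSN vs. WCN and PST vs. PCT. However, PSN, PCT and WCN also stood in the comparisons that chose Cmah, so only PST vs. WSN is free of those groups. Values are RPKM, in which the authors divided the reads of a gene by its length and by the size of the library. Fold changes are on the log2(RPKM + 0.5) scale with their standard error (SE), and limma called a change where its p, adjusted over the 11544 genes by the Benjamini-Hochberg method, was under 0.05. This scale understates changes of genes near 0.5 RPKM.

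Read totals cannot be had from RPKM, but the steps between low values gave depths of 0.624 to 1.526 relative to the median library. The tissue held epithelium throughout, with 7 epithelial markers summing to 5932 to 9461 RPKM per library. Smooth muscle markers summed to 1328 to 9376 RPKM in normal-looking colon and to 166 to 365 RPKM in tumors. In tissue RNA, fewer cells of a type and less RNA per cell cannot be told apart.

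The start regions are shown for Gne and Cmas, which had the most matches to the Sp1 motif among the members with a promoter. Both genes, of early sialic acid synthesis and of activation, were called lower in PST than in WSN, as were Cmah and St3gal6. The Cmas call (adjusted p = 0.0445) was lost in most fits that left out 1 library. A part of the motif in these levels was not tested. They are the 250 bases before the annotated start in the RefSeq table of build GRCr8, written 5′ to 3′ on the strand of the gene, with each match to the Sp1 motif GGGCGG or its reverse CCGCCC in capitals. Cmas lies at chr4:177449551-177449800 on the + strand, and the Gne region lies at chr5:63093186-63093435 on the - strand.
Cmas: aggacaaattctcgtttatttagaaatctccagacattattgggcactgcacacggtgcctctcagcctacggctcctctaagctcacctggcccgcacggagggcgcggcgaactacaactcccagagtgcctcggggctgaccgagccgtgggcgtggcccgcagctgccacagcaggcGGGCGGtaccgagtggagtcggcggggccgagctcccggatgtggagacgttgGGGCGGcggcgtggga
Gne: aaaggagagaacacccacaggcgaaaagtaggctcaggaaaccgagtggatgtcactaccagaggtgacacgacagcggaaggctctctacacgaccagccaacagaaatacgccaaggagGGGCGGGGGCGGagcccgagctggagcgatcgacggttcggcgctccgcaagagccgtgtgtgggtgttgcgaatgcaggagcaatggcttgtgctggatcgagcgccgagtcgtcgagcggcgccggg
Both regions held 2 matches, apart from each other in Cmas and side by side in Gne. Promoters were matched for 8 of the 9 members, and Cmah was the one without an entry. Slc35a1, St6gal1 and Neu1 had 1 match each, and Nans, St3gal6 and the 3 listed St3gal4 promoters had 0. Of 33469 rat promoters searched in the same 250 bases, 30.5% held the Sp1 motif. The TCF/LEF motif ATCAAAG and the HNF4A motif CAAAGTCCA, which share the letters CAAAG, were searched on both strands and had 0 matches in these members, against 3.15% and 0.338% of all promoters.

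Cmah, the hydroxylase of the pathway, had the widest range of the 9, spanning 256-fold over the 18 libraries. It was read at 78.15, 58.49 and 69.57 RPKM in WCN and at 64.89, 91.24 and 99.92 RPKM in WSN. In normal-looking Pirc colon it was at 11.81, 5.32 and 1.75 RPKM in PCN and at 84.83, 39.90 and 67.79 RPKM in PSN. Tumors held 0.71, 0.39 and 0.54 RPKM in PCT and 1.84, 1.86 and 1.75 RPKM in PST. All 9 libraries of WCN, WSN and PSN lay above every library of PCN, PCT and PST.

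**Figure D1:**
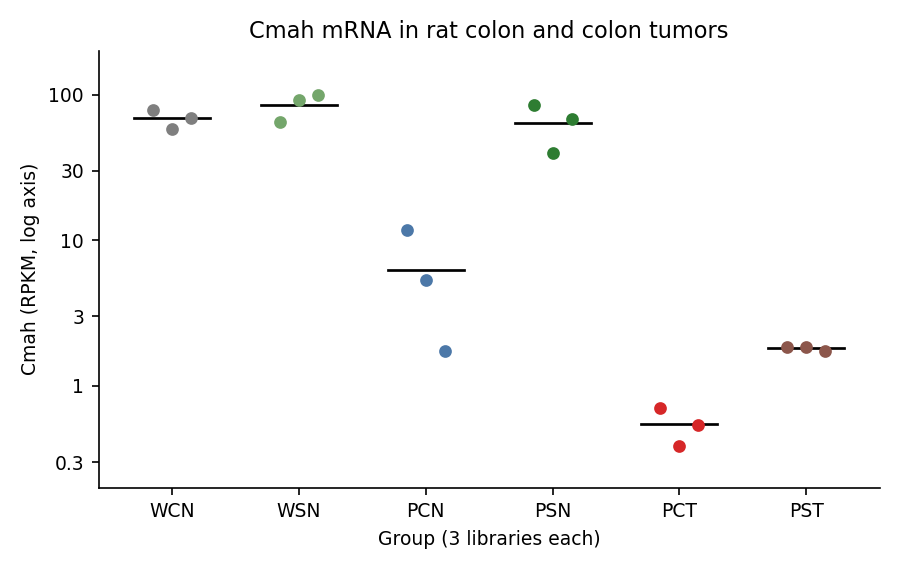
Cmah RPKM (log axis) in each library (points) and the mean of each group (line), 3 libraries a group. WCN, WSN and PSN sit between 39.90 and 99.92 RPKM, PCN between 1.75 and 11.81, PST between 1.75 and 1.86, and PCT between 0.39 and 0.71.

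By mean, the order of Cmah levels was WSN (85.4 ± 18.2 RPKM, SD, n = 3), WCN (68.7 ± 9.86), PSN (64.2 ± 22.7), PCN (6.29 ± 5.10), PST (1.82 ± 0.0586) and PCT (0.547 ± 0.160). The libraries of WSN and WCN overlapped, as did those of WCN and PSN, and the lowest PCN library had the same 1.75 RPKM as the lowest PST library. PSN and PCN did not overlap, and neither did PST and PCT. The spread within PCN was the widest of the 6 groups for Cmah, at 6.75-fold from lowest to highest library.

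In the comparisons that chose it, Cmah was 10.9-fold lower by mean in PCN than in WCN (log2 fold change -3.66, SE 0.43) and 10.2-fold higher in PSN than in PCN (3.50, SE 0.43). It was 11.5-fold lower in PCT than in PCN (-2.39, SE 0.43). As a description, its difference between PSN and PCN was the largest of the 11544 genes by size, and its difference between PCN and WCN ranked 11. Without PCN library 3 the log2 values for PCN vs. WCN, PSN vs. PCN and PCT vs. PCN became -3.02, 2.87 and -3.03, and without PCN library 1 they became -4.25, 4.09 and -1.80.

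The tested comparisons follow, of which only PST vs. WSN holds no group that was used to choose Cmah. PST was 35.3-fold below PSN by mean (log2 fold change -4.74, SE 0.43, adjusted p = 3.99e-06) and 47.0-fold below WSN (-5.19, SE 0.43, adjusted p = 1.83e-06), with no overlap in either. PSN did not pass the test against WSN (-0.45, 95% CI -1.36 to 0.45, adjusted p = 0.829), so a decrease of up to 1.36 log2 units is within the interval. WSN did not pass the test against WCN either (0.30, 95% CI -0.61 to 1.20, adjusted p = 1.00). In tumors, every PST library lay above every PCT library, 3.32-fold by mean, but the change of 1.16 (SE 0.43) did not pass (adjusted p = 0.539), and it was 1.60 and 0.87 with pseudocounts of 0.1 and 1. The difference between the genotype effects on the 2 diets, PSN vs. WSN less PCN vs. WCN, was 3.21 log2 units. It rests on the comparison that chose the gene and was not tested.

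**Figure D2:**
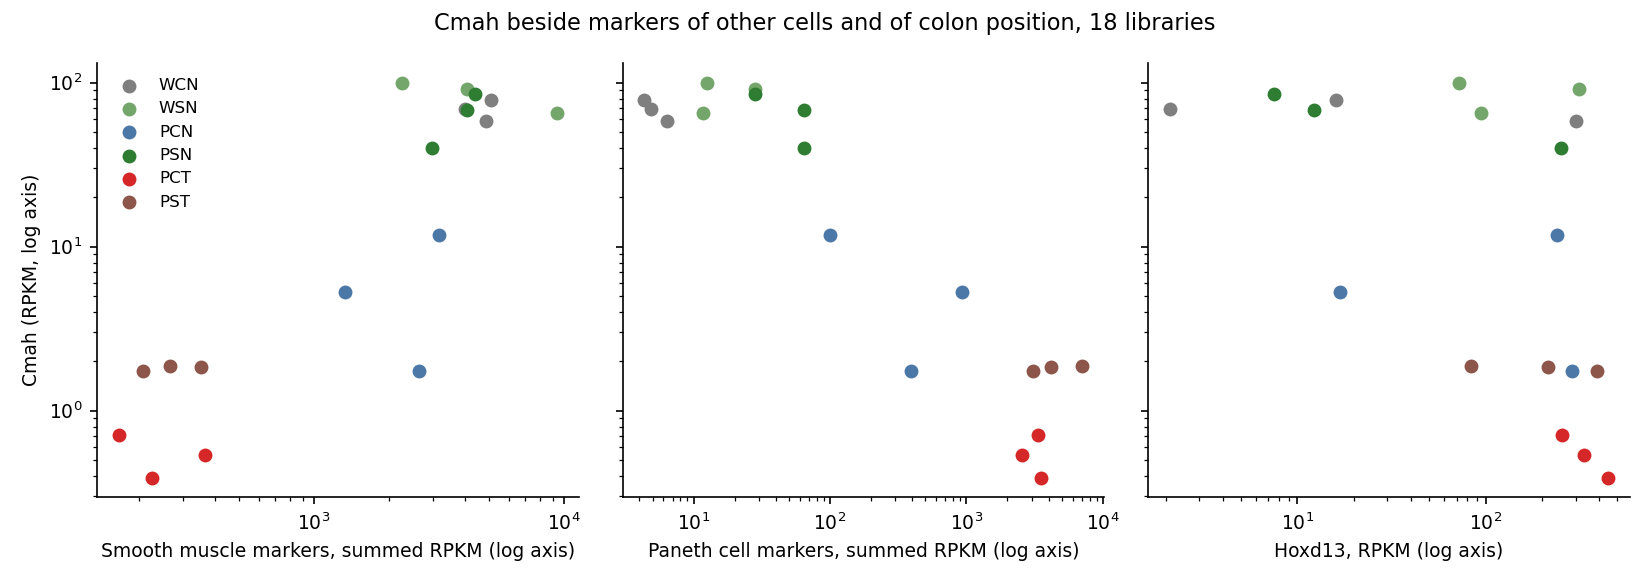
Cmah RPKM against the summed RPKM of 7 smooth muscle markers, the summed RPKM of 6 Paneth cell markers and Hoxd13 RPKM, 1 point per library coloured by group, all axes log. PCN 2 has the lowest smooth muscle sum of the normal-looking libraries (1328). PCN 1 and PCN 3 (3174 and 2620) lie within the range of WSN (2246 to 9376) and below every WCN library (4021 to 5084). Paneth markers are higher in each PCN library (99.6 to 933) than in WCN, WSN and PSN (4.36 to 64.4).

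Normal-looking pieces differed in their make-up. Hoxd13, a homeobox gene of the distal colon, was at 301.2, 314.4 and 250.3 RPKM in WCN 2, WSN 2 and PSN 2, with Cmah at 58.49, 91.24 and 39.90 RPKM, and at 238.6 and 286.7 RPKM in PCN 1 and PCN 3, with Cmah at 11.81 and 1.75 RPKM. At the low end, PCN 2 had 16.8 RPKM of Hoxd13 and 5.32 RPKM of Cmah, while WCN 1 had 16.1 and 78.15 RPKM. WCN 3, PSN 1 and PSN 3 had 2.1, 7.5 and 12.3 RPKM of Hoxd13 and 69.57, 84.83 and 67.79 RPKM of Cmah. Hoxd13 is 1 of 4 distal colon markers in the table. Of these 4, 1 was called lower and 0 higher in PCN vs. WCN, beside 0.130% of all genes called. Their median log2 fold change there was 0.53. In PSN vs. PCN 0 of the 4 were called, with a median of 0.00, and in PST vs. PSN 2 were called lower. The part of position along the colon in the Cmah level was not tested.

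Smooth muscle markers, all 7 of them measured, summed to 3174, 1328 and 2620 RPKM in PCN 1 to 3, to 4021 to 5084 RPKM in WCN and to 2972 to 4416 RPKM in PSN. Every PCN sum thus lay below every WCN sum, and PCN 2 and PCN 3 lay below every PSN sum. The median log2 fold change over the 7 was -1.06 in PCN vs. WCN and 0.75 in PSN vs. PCN, with 0 called in either. WSN 3 had a smooth muscle sum of 2246 RPKM, below PCN 1 and PCN 3, with 99.92 RPKM of Cmah. PCN 2 lay below every library of WCN, WSN and PSN. The part of smooth muscle in the Cmah difference was not tested. In tumors all 7 of these markers were called lower than in PSN, beside the loss of Cmah, and their part was not tested.

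Paneth cell markers were higher in PCN and in tumors, where Cmah was lower, than in WCN, WSN and PSN. The 6 markers, among them the defensin genes Defa24 and Defal1, summed to 4.36 to 6.38 RPKM in WCN and 11.8 to 28.2 RPKM in WSN. The sums were 99.6, 933 and 393 RPKM in PCN and 28.2, 64.4 and 63.9 RPKM in PSN. PCT held 2573 to 3492 RPKM and PST 3051 to 7093 RPKM. Every WSN sum lay above every WCN sum, with 0 of the 6 markers called, while Cmah overlapped between WSN and WCN. The sums of PST and PCT overlapped, with 0 of 6 called. Cmah was higher in every PST than in every PCT library, but that change did not pass its test. Within PCN, the library with the highest sum (933 RPKM) was not the one with the lowest Cmah. Every PCN library lay between the other normal-looking groups and the tumors for Paneth markers. For Cmah this held for the mean of PCN, but not for PCN 3, which matched the lowest PST library. Of 6 markers, 4 were called higher in PCN than in WCN. The part of such cells in the Cmah level was not tested.

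Markers of mature colonocytes, the absorptive cells of the colon surface, overlapped between PCN and each of the other normal-looking groups by their sum, and every PCT library lay below them. The 6 markers, Krt20 and Slc26a3 among them, summed to 1567 to 5850 RPKM in WCN, 1171 to 3079 RPKM in WSN, 1017 to 1822 RPKM in PCN and 1642 to 5584 RPKM in PSN. Tumors held 159 to 533 RPKM in PCT and 383 to 2724 RPKM in PST. The median log2 fold change over the 6 was -0.54 in PCN vs. WCN and 0.71 in PSN vs. PCN, with 0 called in either. In PCT vs. PCN 4 of 6 were called lower and 1 higher, and in PST vs. PSN 3 lower and 1 higher. Their part in the Cmah level was not tested.

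Genes with the pattern most like that of Cmah were ranked among 9335 genes with a group mean of at least 5 RPKM. Over 18 libraries these were Gnb5, a G protein beta subunit (Pearson r = 0.967), Ndufa6, a subunit of mitochondrial complex I (0.959), Pygm, the muscle glycogen phosphorylase (0.950), Ppp1r14a, an inhibitor of smooth muscle myosin phosphatase (0.944), and Olr35, an olfactory receptor gene (0.933). The most opposite were Runx1t1 (-0.953), Habp2 (-0.952) and Defal1 (-0.951). Gnb5 averaged 6.28, 7.38, 2.86, 7.54, 1.37 and 1.66 RPKM in WCN, WSN, PCN, PSN, PCT and PST. Defal1 averaged 0.150, 0.460, 70.9, 5.54, 316 and 316 RPKM in the same order. The points share the 6 groups, so these values describe the group levels, and with Spearman's rho 1 of the 5 most alike genes (Gnb5, 0.919) stayed in place.

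Over the 12 libraries of normal-looking colon the 5 most alike were Aurkaip1 (0.935), Glo1 (0.922), Tmbim4 (0.915), Ndufa6 (0.910) and Ring1 (0.903), and the most opposite were Nrbp1 (-0.942), Pdcd6ip (-0.936) and Ttc14 (-0.930). By Spearman's rho 0 of these 5 stayed among the 5 most alike. Ndufa6 was in both lists, with means of 280, 255, 196 and 264 RPKM in WCN, WSN, PCN and PSN. Among the members, St3gal6 was the most like Cmah, with r = 0.871 over 18 libraries and 0.745 over 12.

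Gne, which starts the pathway, was abundant in normal-looking colon and lower in tumors. Its libraries read 597.16, 572.90 and 510.36 RPKM in WCN and 499.94, 525.90 and 573.58 RPKM in WSN. PCN gave 542.77, 508.46 and 639.26 RPKM and PSN 462.60, 511.36 and 561.83 RPKM. In tumors Gne was at 231.07, 246.97 and 386.39 RPKM (PCT) and at 182.23, 259.53 and 271.83 RPKM (PST). All 6 tumor libraries lay below all 12 libraries of normal-looking colon. Gne was lower in PST than in PSN (log2 fold change -1.12, SE 0.19, adjusted p = 0.000272) and than in WSN (-1.18, SE 0.19, adjusted p = 0.000166). PCT, given without a test, was 1.96-fold below PCN by mean. PCN and WCN differed by 0.00 on the same scale.

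**Figure D3:**
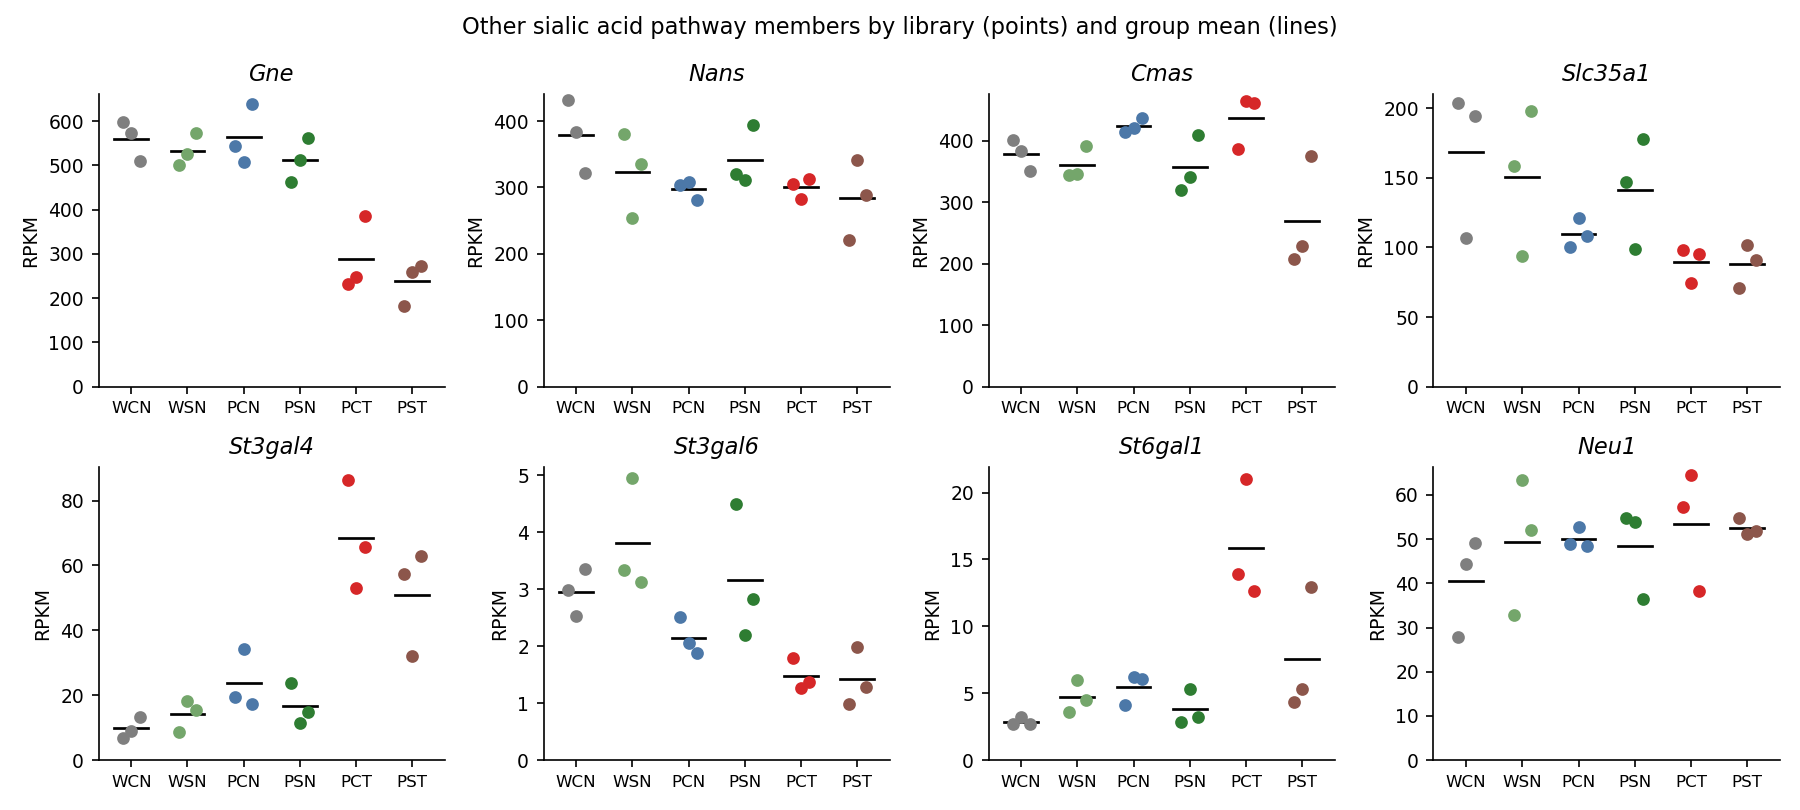
RPKM of the other 8 members in each library (points) with the mean of each group (line), 3 libraries a group, axes from 0. Gne is at most 386.39 RPKM in the 6 tumor libraries and at least 462.60 RPKM elsewhere, St3gal4 is at least 32.08 RPKM in tumors and at most 34.33 RPKM elsewhere, and Neu1 and Nans overlap between tumor and normal-looking groups.

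Nans, the Neu5Ac-9-phosphate synthase, moved little. It ranged from 221.60 to 431.07 RPKM over the 18 libraries, a 1.95-fold span and the narrowest among the members. PST did not pass against PSN (-0.28, 95% CI -0.65 to 0.09, adjusted p = 0.206) or WSN (-0.19, 95% CI -0.56 to 0.18, adjusted p = 0.396). As a description, PCN (281.42 to 308.87 RPKM) lay below WCN (322.14 to 431.07 RPKM) and below PSN (311.60 to 393.78 RPKM).

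Cmas, which activates Neu5Ac in the nucleus, was at 350.07 to 400.97 RPKM in WCN and 344.09 to 390.77 RPKM in WSN. PCN read 413.88, 420.41 and 436.92 RPKM and PSN 320.43, 340.30 and 408.86 RPKM. Tumors of control rats held 385.52, 463.69 and 460.74 RPKM, and those of SPI-fed rats 207.37, 227.85 and 374.92 RPKM. PST libraries 1 and 2 were the lowest of all 18, while PST 3 lay among the normal-looking libraries. Cmas was lower in PST than in WSN (-0.46, SE 0.18, adjusted p = 0.0445), and it missed the threshold against PSN (-0.44, SE 0.18, adjusted p = 0.0554). The call against WSN was lost in 14 of the 18 fits that left out 1 library (adjusted p up to 0.198), and both comparisons passed without PST 3 (0.000929 and 0.00136). Over all alternatives the adjusted p ran from 0.000929 to 0.416 against WSN.

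Slc35a1, the transporter of CMP-sialic acids into the Golgi, was uneven in normal-looking colon. It read 203.98, 106.46 and 194.71 RPKM in WCN, 158.81, 94.05 and 198.31 RPKM in WSN, and 147.33, 98.95 and 177.97 RPKM in PSN. Library 2, with the high Hoxd13 level given above, was the lowest in each of these 3 groups. PCN read 100.47, 121.15 and 108.03 RPKM, where library 2 was the highest and had the least Hoxd13. Tumors ranged from 71.22 to 101.59 RPKM. PST missed the threshold against PSN (-0.66, SE 0.29, adjusted p = 0.0751) and WSN (-0.72, SE 0.29, adjusted p = 0.0512), and each of the fits without WCN 2, WSN 2 or PSN 2 called it lower in both, as did the fit without PSN 3 against WSN, at an adjusted p down to 0.0309 against PSN and 0.00993 against WSN.

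St3gal4, which adds sialic acid in α2-3 linkage to galactose, was the one member called higher in PST. It was at 6.97, 8.87 and 13.45 RPKM in WCN, 8.72, 18.32 and 15.53 RPKM in WSN, 19.54, 34.33 and 17.40 RPKM in PCN and 23.69, 11.46 and 14.91 RPKM in PSN. Tumors held 86.38, 53.03 and 65.83 RPKM in PCT and 57.49, 32.08 and 62.90 RPKM in PST. It rose by 1.58 log2 units (SE 0.36, adjusted p = 0.00262) from PSN to PST, 3.05-fold by mean, and by 1.81 (SE 0.36, adjusted p = 0.000962) from WSN to PST, and groups did not overlap in either. As a description, PCN was 2.43-fold above WCN and PCT 2.88-fold above PCN by mean. PST and PCT overlapped (-0.45, 95% CI -1.22 to 0.31, adjusted p = 0.777). Neutrophil markers, of which all 5 were called higher in PST than in PSN and in WSN, summed to 1757, 214 and 973 RPKM in PST 1 to 3 against 34.3 to 52.0 RPKM in PSN. PST 2 had both the lowest neutrophil sum and the lowest St3gal4 of its group. PST 1 had a higher neutrophil sum than PST 3 but less St3gal4. In PCT, the library with the highest neutrophil sum (1153 RPKM) had the lowest St3gal4 (53.03 RPKM). The part of such cells was not tested.

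St3gal6, a related α2-3 sialyltransferase, went the other way at a low level. WCN read 2.99, 2.53 and 3.35 RPKM, WSN 3.34, 4.95 and 3.13 RPKM, PCN 2.51, 2.06 and 1.88 RPKM, and PSN 4.49, 2.19 and 2.83 RPKM. Tumors were at 1.79, 1.27 and 1.37 RPKM in PCT and 0.98, 1.99 and 1.29 RPKM in PST. PST was below PSN (-0.92, SE 0.26, adjusted p = 0.0104) and WSN (-1.18, SE 0.26, adjusted p = 0.00208), without overlap. The call against PSN was lost without PSN 1 (-0.67, adjusted p = 0.0649).

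St6gal1, which adds sialic acid to galactose in α2-6 linkage, was low in normal-looking colon and highest in tumors of control rats. It was at 2.67 to 3.19 RPKM in WCN, 3.61 to 5.97 RPKM in WSN, 4.14 to 6.18 RPKM in PCN and 2.83 to 5.35 RPKM in PSN. PCT libraries read 13.91, 20.99 and 12.62 RPKM, above every normal-looking library, whereas PST libraries read 4.35, 5.33 and 12.93 RPKM. PST 3 was thus in the range of PCT and the other 2 in the range of normal-looking colon. PST did not pass against PSN (0.80, SE 0.33, adjusted p = 0.0653) or WSN (0.50, SE 0.33, adjusted p = 0.234), and the test against PSN passed without PSN 2 or PST 1 (adjusted p down to 0.0227) and with array weights (1.34, adjusted p = 0.00244). Without PST 3 the change fell to 0.35 (adjusted p = 0.352). As a description, PCT was 2.90-fold above PCN by mean and PCN 1.91-fold above WCN.

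Neu1, the sialidase, passed none of the 5 tests and lay between 27.80 and 64.49 RPKM in all groups. Its means were 40.4, 49.5, 50.0, 48.3, 53.3 and 52.6 RPKM in WCN, WSN, PCN, PSN, PCT and PST. PST vs. PSN gave 0.14 (95% CI -0.39 to 0.68, adjusted p = 0.674) and PST vs. WSN 0.14 (95% CI -0.40 to 0.68, adjusted p = 0.686).

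**Figure D4:**
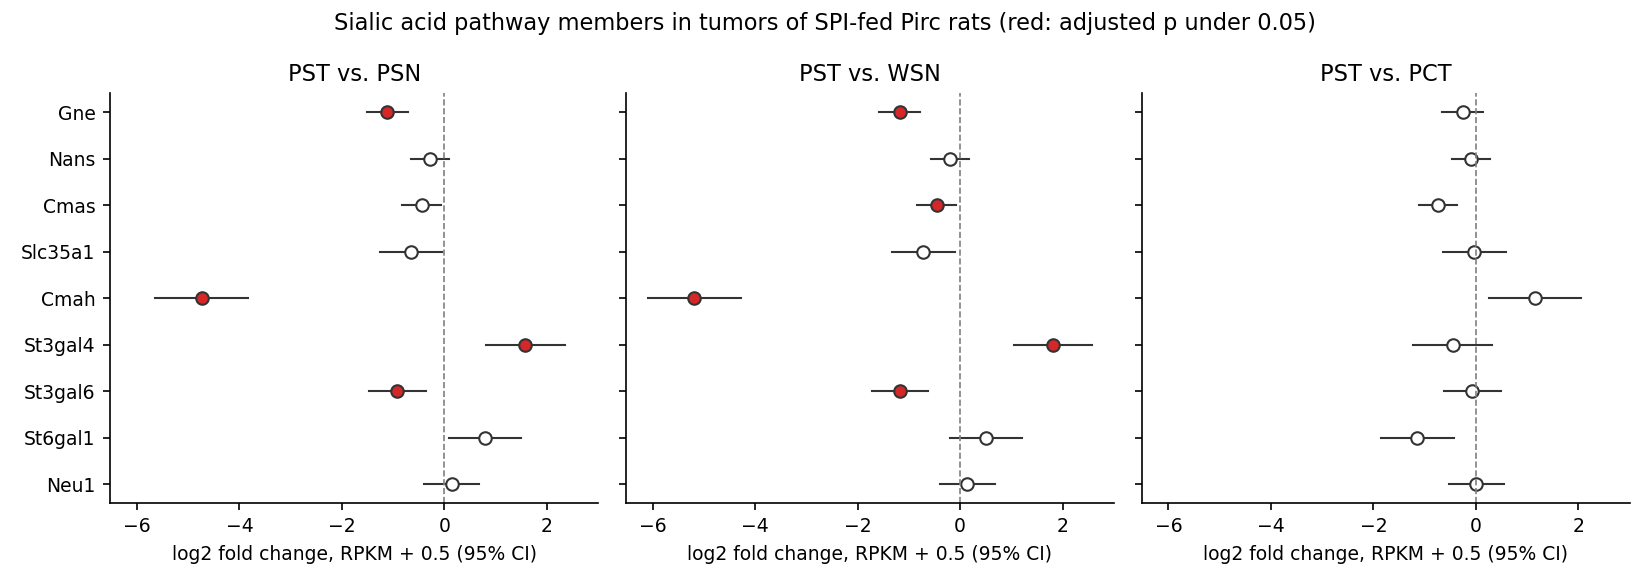
log2 fold change of each member on the log2(RPKM + 0.5) scale with its 95% CI in PST vs. PSN, PST vs. WSN and PST vs. PCT, red where the adjusted p was under 0.05. Cmah, Gne, St3gal6 (lower) and St3gal4 (higher) pass in the first 2 comparisons, Cmas (lower) in the second, and none in the last.

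Counted over the members, PST vs. PSN called 1 of 9 higher (St3gal4) and 3 lower (Cmah, Gne and St3gal6), where 25.9% of all genes were called higher and 16.5% lower. The median over the members was -0.44 log2 units and over all genes 0.12. PSN was among the groups whose values chose the members, so the PST vs. PSN count is not free of that choice. PST vs. WSN called 1 higher and 4 lower, with Cmas added, beside 24.2% higher and 19.7% lower of all genes, and medians of -0.46 and 0.04. With median-of-ratios scaling, which takes the all-gene median of PST vs. PSN from 0.12 to 0.00, the calls over all genes went from 2986 higher and 1900 lower to 2401 higher and 2441 lower. The direction of each called member was unchanged under it.

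The remaining tests, of genotype on the SPI diet and of diet in WT colon and in tumors, called no member. PSN vs. WSN called 0 of 9 members, WSN vs. WCN 0 of 9 and PST vs. PCT 0 of 9, and limma called 0% of all genes in each of the 3. At an unadjusted p under 0.05 the counts of members were 0, 0 and 3, and the counts of genes were 937, 376 and 920. The 3 in PST vs. PCT were Cmah (given above), Cmas (-0.74, SE 0.18, adjusted p = 0.489) and St6gal1 (-1.14, SE 0.33, adjusted p = 0.506). Cmas was lower in all PST than in all PCT libraries, and St6gal1 overlapped through PST 3. Without PST 3 both passed, where Cmas fell by 1.00 log2 units (adjusted p = 0.0250) and St6gal1 changed by -1.59 (adjusted p = 0.0432), and 18 genes in all were called.

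In the comparisons used to choose members, groups did not overlap for 6 of 9 members in PCN vs. WCN, with Cmas, St3gal4 and St6gal1 higher and Cmah, Nans and St3gal6 lower, beside 21.4% of all genes. In PCT vs. PCN this held for 6 of 9, with St3gal4 and St6gal1 higher and Cmah, Gne, Slc35a1 and St3gal6 lower, beside 50.1%. In PSN vs. PCN it held for Cmah and Nans, higher, and Cmas, lower, beside 11.6%.

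The wider pathway was covered by 41 other genes listed for their role, of which 37 were in the table and 27 passed the filter. They supply UDP-GlcNAc, complete Neu5Ac synthesis, transfer sialic acid, remove or break it down, or bind it as Siglec receptors. PCN vs. WCN called 0 of the 27, beside 0.130% of all genes, and PSN vs. PCN called 0 of the 27, beside 0.00866%. At an unadjusted p under 0.05 there were 1 and 2 of the 27, and 1545 and 614 of the 11544 genes. PSN vs. WSN, WSN vs. WCN and PST vs. PCT called 0 as well, with 1, 2 and 2 at an unadjusted p under 0.05.

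In tumors, where many genes of any kind were called, so were some of these. PCT vs. PCN called 2 of 27 higher and 9 lower, beside 21.0% and 11.7% of all genes, PST vs. PSN called 2 higher and 11 lower, beside 25.9% and 16.5%, and PST vs. WSN 3 higher and 13 lower, beside 24.2% and 19.7%. The medians over the 27 were -0.39, -0.61 and -0.65 log2 units, where those over all genes were 0.13, 0.12 and 0.04. With median-of-ratios scaling, calls over all genes in PCT vs. PCN went from 2427 higher and 1351 lower to 1723 higher and 1747 lower. PCT vs. PCN and PST vs. PSN do not share libraries.

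Among the sialyltransferases that act on N-acetylgalactosamine of mucins and on glycolipids, St6galnac1 and St6galnac6 were the most abundant. St6galnac1, which makes the sialyl-Tn antigen, was at 255.27 to 458.71 RPKM in normal-looking colon and 28.60 to 89.75 RPKM in tumors. Its log2 fold change was -2.81 (SE 0.30, adjusted p = 3.99e-05) in PCT vs. PCN and -2.60 (SE 0.30, adjusted p = 2.11e-05) in PST vs. PSN. St6galnac6 was at 999.31 to 1812.06 RPKM in normal-looking colon and 267.40 to 715.11 RPKM in tumors, with changes of -1.47 (SE 0.26, adjusted p = 0.000853) and -1.82 (SE 0.26, adjusted p = 9.00e-05). Markers of goblet cells, which secrete mucins, moved with them. The 6 measured markers summed to 3640 to 11175 RPKM in normal-looking colon and 636 to 1807 RPKM in tumors, and all 6 were called lower in both comparisons. The part of these cells was not tested.

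Among the other α2-3 sialyltransferases, St3gal3 fell in PCT vs. PCN (-2.03, SE 0.43, adjusted p = 0.00247) and in PST vs. PSN (-2.29, SE 0.43, adjusted p = 0.000625), and St3gal2 fell likewise (-1.46, SE 0.42, adjusted p = 0.0164, and -1.44, SE 0.42, adjusted p = 0.0129). The calls of St3gal2 were lost without PCN 3 or PCT 1 (adjusted p up to 0.0810) and without PSN 2 (0.0720). St3gal5, which makes the ganglioside GM3, rose by 1.51 (SE 0.23, adjusted p = 0.000313) and 1.94 (SE 0.23, adjusted p = 2.27e-05), from 2.80 to 6.62 RPKM in normal-looking libraries to 9.91 to 19.57 RPKM in tumor libraries. With the members counted, 4 of the 6 genes of this class were called lower and 2 (St3gal4 and St3gal5) higher in PST vs. PSN, beside 16.5% and 25.9% of all genes. St3gal1, one of the 4, was called in PST vs. PSN (-2.18, SE 0.62, adjusted p = 0.0115) and not in PCT vs. PCN (-0.77, SE 0.62, adjusted p = 0.374).

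**Figure D5:**
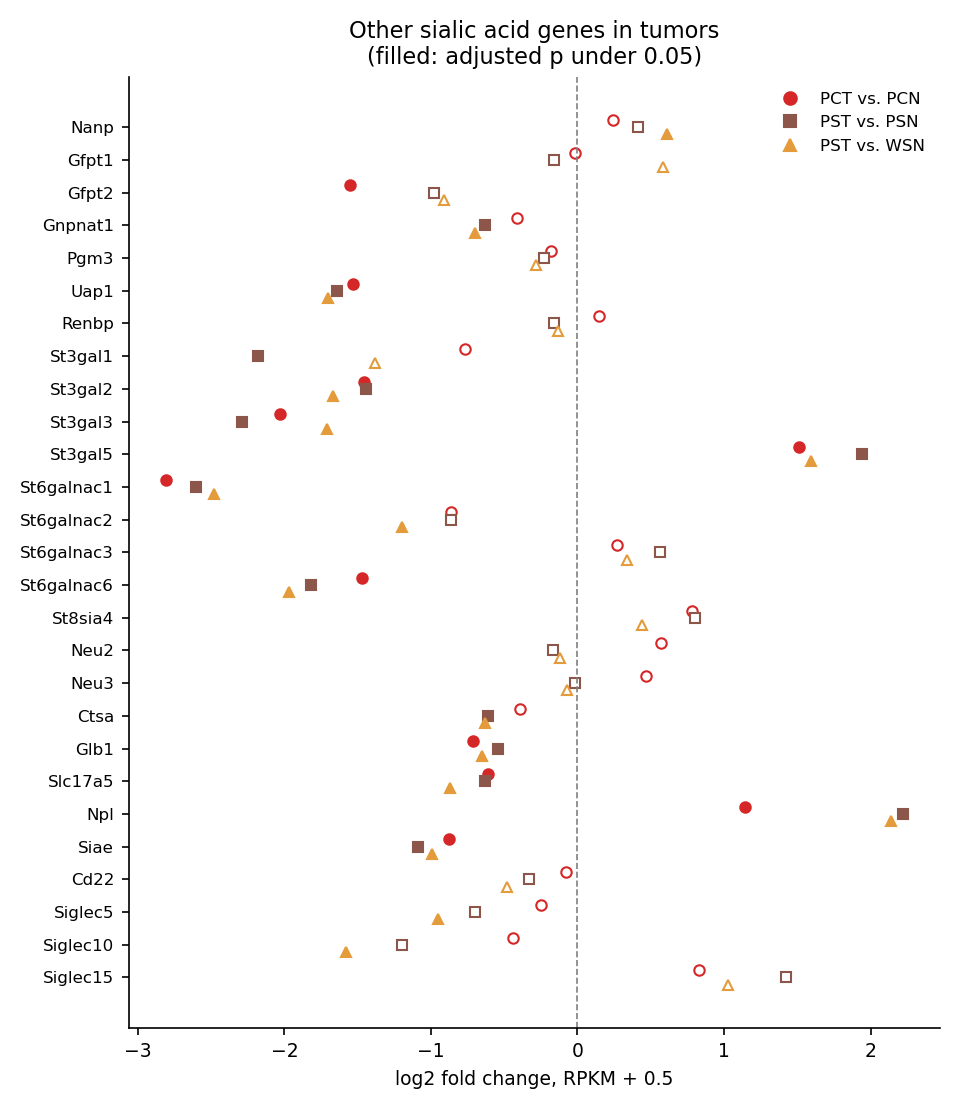
log2 fold change of 27 other sialic acid genes on the log2(RPKM + 0.5) scale in PCT vs. PCN (circles), PST vs. PSN (squares) and PST vs. WSN (triangles), filled where the adjusted p was under 0.05. St6galnac1, St6galnac6, St3gal2, St3gal3, Uap1, Glb1, Slc17a5 and Siae are called lower and St3gal5 and Npl higher in all 3, where PST stands in 2 of them.

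Before the pathway, Uap1, which makes UDP-GlcNAc, fell in PCT vs. PCN (-1.53, SE 0.20, adjusted p = 0.000114) and in PST vs. PSN (-1.64, SE 0.20, adjusted p = 2.45e-05), beside the lower Gne of the next step. After it, Npl, the lyase that breaks down free sialic acid, rose by 1.14 (SE 0.32, adjusted p = 0.0133) and 2.22 (SE 0.32, adjusted p = 8.56e-05), at 1.29 to 3.14 RPKM in normal-looking colon, 3.65 to 8.02 RPKM in PCT and 7.79 to 14.53 RPKM in PST. The call of Npl in PCT vs. PCN was lost without PCN 3 or PCT 2 (adjusted p up to 0.0654). Slc17a5, the exporter of sialic acid from lysosomes, fell in both (-0.61, SE 0.15, adjusted p = 0.00733, and -0.63, SE 0.15, adjusted p = 0.00443). Siae, a sialic acid O-acetylesterase, fell in both (-0.88, SE 0.21, adjusted p = 0.00591, and -1.09, SE 0.21, adjusted p = 0.000864). The cytosolic and plasma membrane sialidases Neu2 and Neu3 did not pass in any of the 8 comparisons, as Neu1 did not in the 5 tested, and Neu4 and the second α2-6 galactose enzyme St6gal2 are listed at 0 in every library. Of the lysosomal partners listed with them, Glb1 fell in both (-0.71, SE 0.18, adjusted p = 0.00692, and -0.54, SE 0.18, adjusted p = 0.0226). Ctsa was called in PST vs. PSN (-0.61, SE 0.18, adjusted p = 0.0141) and not in PCT vs. PCN (-0.39, adjusted p = 0.111). Leaving out 1 library could lose the PST vs. PSN calls of Glb1 (adjusted p up to 0.0927) and Ctsa (up to 0.0567).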

How the data were processed

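RNA-seq libraries were poly(A)-selected, strand-specific and paired-end. Bowtie2 and DESeq2 appear in the submitters' processing notes. Neither build nor settings are given in the sources used here. RPKM values, deposited by the authors to 2 decimals, listed 17378 entries, of which 2707 held 0 throughout and 26 with date-like names were dropped. The small RNA libraries were not used here. Library correlations were 0.834 to 0.982 and no library copied another.

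The filter kept 11544 genes that reached 1 RPKM in 3 or more libraries. On log2(RPKM + 0.5), limma 3.58.1 (R 4.3.3, trend and robust) fitted a mean per group over 18 libraries, leaving 12 residual degrees of freedom. Tested on simulated data, the fit recovered most of the large log2 changes put in. Changes as small as those of the members other than Cmah were not simulated. Relative depth came from the spacing of low values, where 145 of 153 library pairs agreed within 0.05 log2 units and 54 of 54 simulated libraries within 0.06.

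The members and gene lists were chosen with earlier results of these data known. Named were the 9 members, pathway genes past the threshold (up to 4 per list), and the 5 most alike and 3 most opposite genes to Cmah by Pearson r. Promoters came from RefSeq (GRCr8). Alternatives changed the pseudocount, filter, scaling, libraries in the fit, moderation, weights, threshold and replicate block, and left out each library. Python 3.11.15, numpy 2.4.6, pandas 2.3.3 and matplotlib 3.10.9 were used.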

Additional observations from a re-analysis of the deposited data

How the results depend on the processing

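The counts of members called stayed within 1.5 times of those reported under each alternative pseudocount, filter, scaling, moderation, weighting and threshold. Leaving out 1 library at a time gave 3 to 6 members called in PST vs. PSN, 4 to 6 in PST vs. WSN, 0 to 2 in PST vs. PCT (2 without PST 3), and 0 in PSN vs. WSN and WSN vs. WCN. Over all genes these fits called 2270 to 3003 higher and 1504 to 1916 lower in PST vs. PSN. In PST vs. WSN they called 2324 to 2802 higher and 1915 to 2281 lower. For the other pathway genes, leaving out 1 library gave 9 to 12 called in PCT vs. PCN and 0 in PCN vs. WCN and PSN vs. PCN. Over all genes these fits called 1390 to 2756 higher and 865 to 1492 lower in PCT vs. PCN. Cmah in PST vs. PSN ran from -5.04 to -4.47 log2 units over 28 alternatives, and from -5.46 to -4.92 in PST vs. WSN over 27, with the adjusted p at most 0.000550 and 5.36e-05. Gne and St3gal4 kept both calls in all. St3gal6 was lost in PST vs. PSN with only the 2 groups in the fit (adjusted p = 0.0600) and at a threshold of 0.01. Median-of-ratios scaling took the members called in PST vs. PSN from 4 to 6, with Cmas (0.0117) and Slc35a1 (0.0389) added, and called Slc35a1 in PST vs. WSN (0.0373). Array weights also called 6 members in both, with Slc35a1 (0.0492 and 0.0282) and St6gal1 (0.00244 and 0.0201) added and Cmas lost in PST vs. WSN (0.416). Calls over all genes under these weights went from 2986 higher and 1900 lower to 3577 and 1969 in PST vs. PSN. In PST vs. WSN they went from 2797 higher and 2275 lower to 2992 and 2082. Without 1 library, Neu1 ran from -0.05 (without PSN 3) to 0.24 in PST vs. PSN and from -0.13 (without WSN 1) to 0.34 in PST vs. WSN, and the cause was not tested.

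The tumor and normal-looking pieces were matched within Pirc rats, but no label says that a shared number is a shared rat. With the number as a replicate block, 5 members were called in PST vs. PSN (Cmas added, adjusted p = 0.0440, and St3gal6 at 0.0499), and over all genes 2759 were higher and 1891 lower. For PCT vs. PCN the paired fit called 2061 higher and 1235 lower. Same-numbered libraries correlated, after removal of group means, at 0.0965, 0.0886 and 0.193 for PCN with PCT and at 0.128, -0.0496 and 0.0219 for PSN with PST, and 2 of 6 and 3 of 6 libraries correlated best with their own number.

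St3gal6 could not be tested with the filter at 5 RPKM. How many reads stand behind tumor Cmah values near 0.5 RPKM is unknown.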
